A study of Homo sapiens with 2 samples.

Results

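Annexins are calcium-dependent proteins that bind the inner face of membranes, and galectins are lectins that bind galactose-containing sugars on glycoproteins. The 10 genes described here, 7 annexins (ANXA1, ANXA2, ANXA4, ANXA5, ANXA6, ANXA7 and ANXA11) and 3 galectins (LGALS1, LGALS3 and LGALS8), were taken by name and found by Entrez Gene identifier among 16085 genes and assembled loci. All 10 were listed in both libraries and had an FPKM (fragments scaled to gene length and to the size of the library) of at least 1 in each. RNA was sequenced after poly(A) selection, and the cell line is labelled MDA-MB-231, a human triple-negative breast carcinoma line. The control library (shCtrl) is named for a short hairpin RNA, and the knockdown library (shZEB1) for one against ZEB1, a transcription factor that drives epithelial cells towards a mesenchymal state. With 1 library per group no test and no p-value could be had, and nothing measured how cultures differ among themselves. The sources used here do not give the hairpin sequences, the vector, or whether the cells were 1 clone or a pool.

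Members of both families lie mainly inside the cell, and both leave it without a signal peptide. Annexins share a conserved core that holds the calcium sites and differ in their N-terminal tails, several of which bind S100 proteins. They act in membrane trafficking, in the resealing of torn membranes and, at the cell surface, in plasminogen activation and the resolution of inflammation. Galectins cross-link surface glycoproteins, dampen T cell responses when secreted, and mark damaged endosomes and lysosomes from the cytosol side. Tumour cells, fibroblasts and macrophages can all make them.

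The estimated reads assigned to listed genes and loci summed to 8740584 in shCtrl and 8441491 in shZEB1. ZEB1 itself had 46 reads in shCtrl and 15 in shZEB1, an FPKM of 0.88 and 0.31. Its read ratio was 0.338, with a 95% interval of 0.175 to 0.616. This and all following intervals cover counting error only, and since the labels describe no molecular identifiers, PCR copies may count as separate reads. The marker genes leave the line label in doubt. Melanocyte markers were abundant, while those of basal-type breast lines were scarce or absent except KRT18, CAV1 and AXL. All 7 melanocyte markers were listed, with a median FPKM of 175 in shCtrl and 128 in shZEB1, among them PMEL (703 and 405), TYR (154 and 128) and SOX10 (175 and 171). Of 7 markers of basal-type breast lines KRT19 was in neither file and EGFR had an FPKM of 0.52 and 0.65, while KRT7 had 0.74 and 1.67, F3 0.87 and 1.82, KRT18 40.5 and 58.7, CAV1 46.6 and 44.0 and AXL 11.1 and 9.12. Of 6 macrophage markers, neither file held TYROBP, PTPRC or CD163, CSF1R and ITGAM had an FPKM of at most 0.09, and CD68 had 18.7 and 4.12. Of 5 fibroblast markers DCN was in neither file, and LUM (0.56 and 1.55) and FAP (1.30 and 1.63) had the highest levels.

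Across the 10 genes the shZEB1 library held less annexin and galectin RNA. Together they took 0.415% of the reads assigned to listed genes and loci in shCtrl (exact binomial interval 0.411% to 0.419%) and 0.341% in shZEB1 (0.337% to 0.345%). The galectin part was 0.119% and 0.0869%, and the annexin part 0.296% and 0.254%. Every member had a lower FPKM in shZEB1, by between 0.211% for ANXA4 and 35.8% for LGALS1. In bulk RNA, fewer cells of a type and less RNA per cell cannot be told apart.

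The difference was small for most members. The measure used was log2((FPKM shZEB1 + 1)/(FPKM shCtrl + 1)), a scale on which differences of scarce genes look smaller than they are. Its median was -0.22 over the 10 members, -0.20 over the annexins and -0.37 over the galectins, beside 0.02 over all 12274 measured genes, those with an FPKM of at least 1 in either library. A gene was counted as lower or higher when this value reached -1 or 1 and the interval of its read ratio excluded 1. None of the 10 members (0 lower, 0 higher) met that rule, which counted 1.61% of all measured genes as lower and 0.937% as higher, 198 and 115 genes. With TPM in place of FPKM those counts were 227 and 236, and with a pseudocount of 0.1 they were 294 and 311. With edgeR's TMM scaling of counts they were 262 and 209. DESeq2 size factors were 1 for both libraries, which left counts unscaled, and gave 326 and 313. By the interval alone, 8 of the 10 members were lower and 0 higher, against 21.4% lower and 27.9% higher among all measured genes. All 10 members had a log2 ratio below 0, as did 46.7% of all measured genes.

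Abundant genes were lower more often, so the background was also taken at high levels. Among the 795 genes with an FPKM of at least 100 in either library, the interval placed 43.0% lower, 59.9% had a log2 ratio below 0, and the median was -0.06. Of the 6 members at that level, ANXA1, ANXA2, ANXA5, LGALS1 and LGALS3 were lower by the interval and ANXA6 was not, and their median was -0.22.

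**Figure D1:**
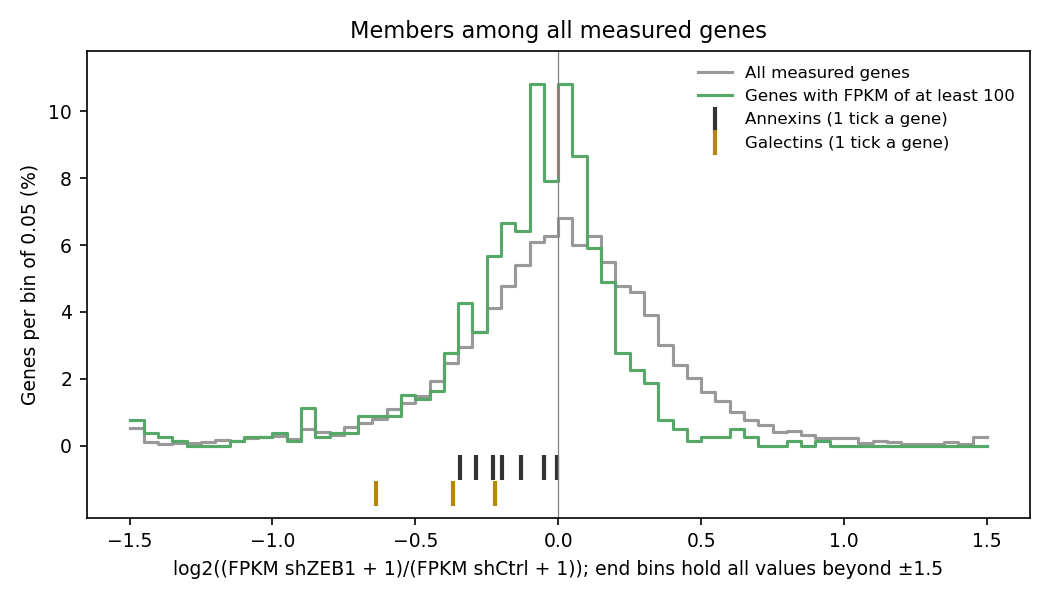
Share of genes per bin of log2 ratio, over all 12274 measured genes and over the 795 with an FPKM of at least 100, with ticks for the annexins and galectins. All ticks lie left of 0, and LGALS1 (-0.64) lies farthest left.

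**Figure D2:**
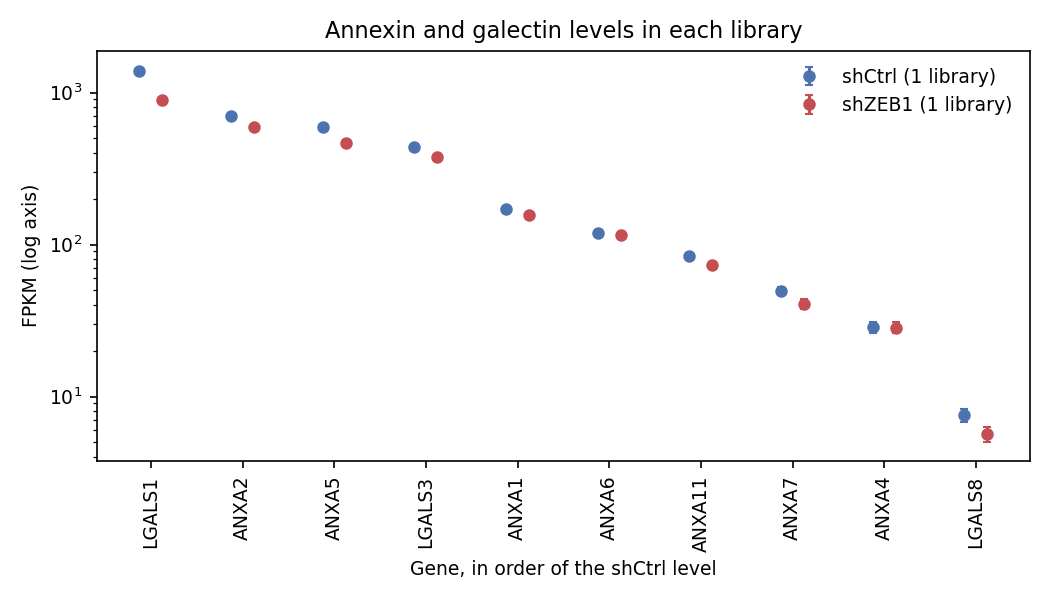
FPKM of the 10 genes in each library, on a log axis, in order of the shCtrl level; points are single libraries and bars are 95% exact Poisson counting intervals. LGALS1 has the highest level in both libraries (1386 and 889) and LGALS8 the lowest (7.56 and 5.63), and the order of the genes is the same in both.

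The order of the levels was the same in both libraries: LGALS1, ANXA2, ANXA5, LGALS3, ANXA1, ANXA6, ANXA11, ANXA7, ANXA4 and LGALS8. FPKM is scaled to gene length, so levels can be set side by side between genes. In neither library did the counting intervals of neighbours in that order overlap. LGALS1 had a higher FPKM than 99.8% of the genes listed in shCtrl and 99.5% of those in shZEB1, while LGALS8 lay above 51.5% and 45.0%.

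LGALS1 showed the largest difference of the 10. It encodes galectin-1, a small dimeric lectin that tumours secrete and that is known to kill or silence activated T cells. Its gene (Entrez Gene 3956) lies at chr22:37675636-37679802 on GRCh38, whose RefSeq annotation gave all gene coordinates here. It had 6346 reads and an FPKM of 1386 in shCtrl, against 3992 reads and 889 in shZEB1, so the shCtrl library was the higher. The FPKM was 1.56-fold lower in shZEB1, with a log2 ratio of -0.64 and a read ratio of 0.651 (interval 0.626 to 0.678). Only 4.75% of measured genes had a lower log2 ratio. With a threshold of 1.5-fold in place of 2-fold, LGALS1 was the 1 member counted as lower. That threshold counted 5.41% of all measured genes as lower and 4.98% as higher, and 6.79% of those with an FPKM of at least 100 as lower. The interval of LGALS1 lay below those of 8 of the other 9 members and overlapped that of LGALS8.

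LGALS3, which encodes galectin-3, was lower to a lesser extent. Galectin-3 carries a flexible tail through which it forms larger complexes, and it is abundant in macrophages and in many carcinomas. Its gene (Entrez Gene 3958) lies at chr14:55129252-55145430. It had 3651 reads and an FPKM of 437 in shCtrl, against 3050 reads and 375 in shZEB1. That was 1.17-fold lower, with a log2 ratio of -0.22 and a read ratio of 0.865 (interval 0.824 to 0.908). The FPKM ratio of LGALS1 to LGALS3 was 3.17 in shCtrl and 2.37 in shZEB1, and the ratio of reads differed by a factor of 0.753 (interval 0.707 to 0.801). LGALS1 made up 75.7% of the summed FPKM of the 3 galectins in shCtrl and 70.0% in shZEB1, and LGALS3 23.9% and 29.5%.

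LGALS8 was the scarcest member. It encodes galectin-8, which has a pair of sugar-binding domains joined by a linker and recruits the autophagy receptor CALCOCO2 to damaged vesicles. The FPKM was 7.56 in shCtrl, on 410 reads, and 5.63 in shZEB1, on 295 reads, a log2 ratio of -0.37 and a read ratio of 0.745 (interval 0.639 to 0.867). Its gene (Entrez Gene 3964) lies at chr1:236518214-236552981. In GENCODE release 29 its exons overlap those of HEATR1, LGALS8-AS1 and AL359921.1, all on the opposite strand. HEATR1 had 1075 and 1166 reads, and the antisense genes LGALS8-AS1 and AL359921.1 had no count here. The strand setting of the counting is not given in the sources used here, so reads of these genes cannot be told apart where they overlap. The gene length used by the authors was 6252 bases in shCtrl and 6239 in shZEB1.

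ANXA5 had the largest difference among the annexins. Annexin A5 binds phosphatidylserine and forms lattices on exposed membranes, and it is widely used as a stain for dying cells. Its gene (Entrez Gene 308) lies at chr4:121667946-121696980. It had 8100 reads and an FPKM of 592 in shCtrl, against 6188 reads and 466 in shZEB1. That was 1.27-fold lower, with a log2 ratio of -0.34 and a read ratio of 0.791 (interval 0.765 to 0.818), and 13.9% of measured genes had a lower log2 ratio.

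ANXA2 was the most abundant annexin in both libraries. Annexin A2 pairs with S100A10 at the plasma membrane, where the complex is known to hold plasminogen and its activator. The gene (Entrez Gene 302) lies at chr15:60347151-60397986. Its FPKM was 700.1 in shCtrl, on 9266 reads, and 597 in shZEB1, on 7678 reads. That was 1.17-fold lower, with a log2 ratio of -0.23 and a read ratio of 0.858 (interval 0.832 to 0.884). ANXA2 and ANXA5 together held most of the annexin RNA: ANXA2 made up 40.1% and 40.5% of the summed FPKM of the 7 annexins in shCtrl and shZEB1, and ANXA5 34.0% and 31.6%.

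ANXA7 and ANXA11, a related pair with long N-terminal tails, were lower by similar amounts. ANXA7 encodes synexin, first described for its part in the fusion of secretory granules, and annexin A11 is known to tether RNA granules to lysosomes. ANXA7 had 905 reads and an FPKM of 49.6 in shCtrl, against 716 reads and 40.5 in shZEB1, a read ratio of 0.819 (interval 0.742 to 0.905). ANXA11 had an FPKM of 83.8 on 1759 reads and 73.0 on 1483 reads, a read ratio of 0.873 (interval 0.814 to 0.936). Both intervals lay below 1, and they overlapped each other. Both genes are on chromosome 10, ANXA7 (Entrez Gene 310) at chr10:73375101-73414058 and ANXA11 (Entrez Gene 311) at chr10:80150889-80205808. An antisense gene, AL512656.1, overlaps exons of ANXA7, and the deposited counts of ANXA11 were not whole, so some of its reads were shared with other models.

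ANXA1 was the member nearest to no difference among those whose interval excluded 1. Annexin A1 is induced by glucocorticoids and restrains inflammation by acting on formyl peptide receptors of leukocytes. The gene (Entrez Gene 301) lies at chr9:73151865-73170393. Its FPKM was 171 in shCtrl, on 2232 reads, and 156 in shZEB1, on 1977 reads. That was 8.77% lower, with a log2 ratio of -0.13 and a read ratio of 0.917 (interval 0.863 to 0.975).

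For ANXA4 and ANXA6 the interval included 1. ANXA4, which encodes an annexin best known from secretory epithelia, had 524 reads and an FPKM of 28.5 in shCtrl, against 507 reads and 28.4 in shZEB1, with a read ratio of 1.00 (interval 0.885 to 1.13). ANXA6 encodes the largest annexin, whose core is duplicated and which takes part in membrane repair and cholesterol traffic. It had an FPKM of 119 on 3070 reads and 115 on 2872 reads (read ratio 0.969, interval 0.920 to 1.02). Neither gene differed beyond counting error. ANXA4 (Entrez Gene 307) lies at chr2:69643808-69827112 and ANXA6 (Entrez Gene 309) at chr5:151100706-151157779. With TPM, the log2 ratios of ANXA4 and ANXA6 turned to 0.05 and 0.0032, and 8 of the 10 members were below 0. In all 7 measures tried, this one and those with other scalings or another pseudocount, all 10 members lay below the median of all measured genes.

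**Figure D3:**
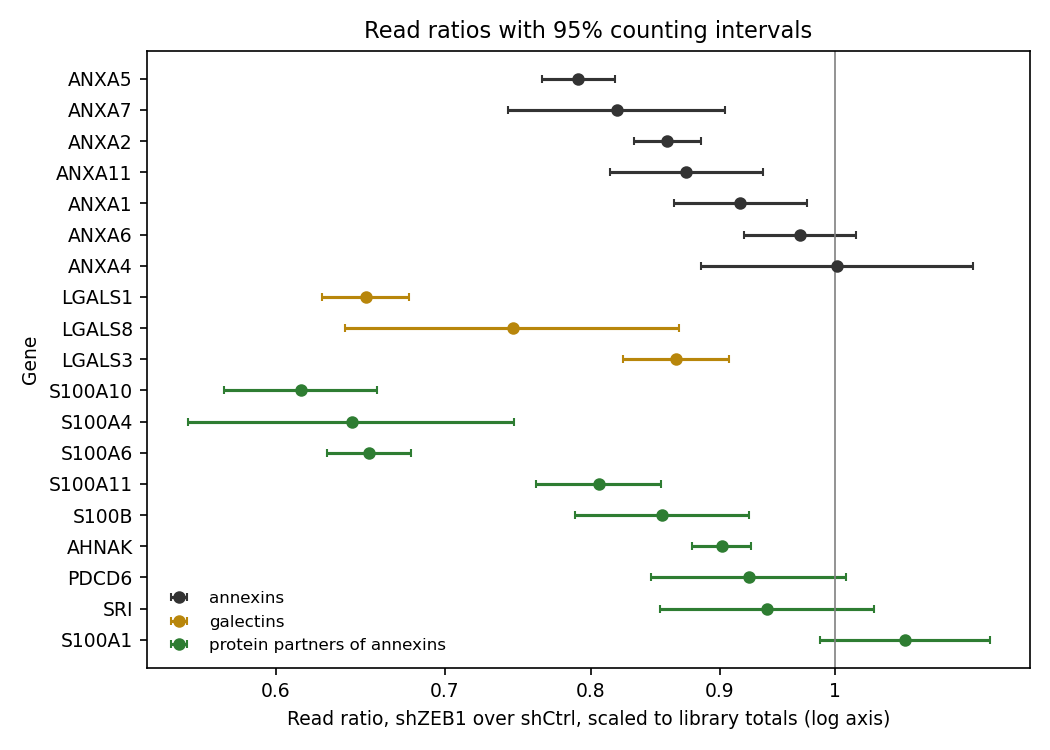
Read ratio of shZEB1 over shCtrl, scaled to library totals, on a log axis, for the annexins, the galectins and protein partners of annexins; bars are 95% exact binomial counting intervals and the grey line marks a ratio of 1. LGALS1 (0.651), S100A10 (0.614), S100A4 (0.643) and S100A6 (0.653) lie lowest, and the bars of ANXA4, ANXA6, PDCD6, SRI and S100A1 cross 1.

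Other annexin and galectin genes were scarce. Of 6 further annexins 1 was measured: ANXA9, with 15 reads in shCtrl and 22 in shZEB1 (interval of the read ratio 0.753 to 3.15). ANXA3 had 8 and 7 reads, ANXA13 1 and 1, and ANXA10 was in neither file. ANXA8 had 1 read in shZEB1 and its near-identical copy ANXA8L1 had 3 reads in shCtrl, and their division is uncertain. Of 13 further galectin genes 10 were in neither file. A count of 0 allows for up to 3 reads in a library. LGALSL, a galectin-like gene, had 123 and 107 reads (interval 0.689 to 1.18). LGALS4 had 5 reads in shZEB1 alone, and LGALS9, which encodes a ligand of the inhibitory T cell protein TIM-3, had 5 in shCtrl alone. No annexin or galectin pseudogene was listed in either file.

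Of 9 protein partners of annexins all were measured, 6 were lower by the interval and 0 higher, beside 21.4% lower and 27.9% higher over all measured genes and 43.0% lower among genes with an FPKM of at least 100. None met the size rule, and their median log2 ratio was -0.24. S100A10, the partner of annexin A2, had 2144 reads and an FPKM of 243 in shCtrl, against 1271 reads and 148 in shZEB1, with a read ratio of 0.614 (interval 0.572 to 0.658). The FPKM ratio of ANXA2 to S100A10 was 2.88 in shCtrl and 4.03 in shZEB1, and the ratio of reads differed 1.40-fold (interval 1.30 to 1.51). S100A10 RNA was thus lower by more than ANXA2 RNA, beyond counting error.

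The same direction was seen for the other annexin and S100 pairs compared, ANXA1 with S100A11 and ANXA11 with S100A6. S100A1 and S100A4 were not paired with an annexin. S100A11, which binds the tail of annexin A1, had an FPKM of 583 and 463 (read ratio 0.806, interval 0.761 to 0.853), and the ratio of ANXA1 to S100A11 reads was 1.14 times as large in shZEB1 (interval 1.05 to 1.24). S100A6, a partner of annexin A11, had 1239 and 799.6, and the ANXA11 to S100A6 ratio was 1.34 times as large (interval 1.23 to 1.45). S100A4 (116 and 73.7) was among the 4 partners with the largest differences. In contrast, S100A1 had 269 and 284 and its interval included 1. For the calcium sensors PDCD6 and sorcin (SRI), which bind annexins A11 and A7, the intervals of the paired ratios with ANXA11 (0.845 to 1.06) and ANXA7 (0.760 to 1.0001) included 1.

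Receptors of annexin A1 were scarce: FPR1 had 1 read in shCtrl and none was listed in shZEB1, and FPR2 and FPR3 were in neither file. PLAT, the tissue plasminogen activator that the annexin A2 complex binds, had an FPKM of 32.1 and 21.6 (read ratio 0.675, interval 0.607 to 0.751). Plasminogen itself (PLG) was in neither file.

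Genes of membrane repair were lower for 8 of 11 measured members by the interval and higher for 2, beside 21.4% lower and 27.9% higher over all measured genes. Their median log2 ratio was -0.19, and 0 were counted by the size rule. SMPD1, the acid sphingomyelinase, had 57.1 FPKM in shCtrl against 37.9 in shZEB1. VPS4A, an ATPase of the ESCRT machinery that closes wounds, had 67.7 and 46.1, while its paralog VPS4B had 12.3 and 16.7. EHD2, a membrane-bending ATPase, had 20.7 and 16.6. EHD1, the other gene higher by the interval (1.12 to 1.40), had 19.4 and 24.1. Phosphatidylserine, the lipid that annexin A5 binds, is exposed by scramblases and returned by flippases. Of 6 measured genes of that group 2 were lower by the interval and 1 was higher, near the shares over all measured genes (21.4% and 27.9%), and the median was -0.12. PLSCR1 had 44.4 and 29.2, PLSCR3 19.5 and 15.5, and TMEM30A, the flippase subunit, 47.0 and 63.5. ATP11A, a flippase, had 16.2 and 14.5, but the interval of its read ratio (0.911 to 1.06) included 1. Its deposited gene length was 9793 bases in shCtrl and 10719 in shZEB1.

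Glycoproteins that bind galectins were lower by the interval for 7 of 9 measured members and higher for 1, beside 21.4% lower and 27.9% higher over all measured genes and 43.0% lower among genes with an FPKM of at least 100. Their median log2 ratio was -0.34, and 0 were counted by the size rule. LGALS3BP, a secreted ligand of galectin-3, had 6999 reads and an FPKM of 361 in shCtrl, against 4762 reads and 253 in shZEB1, with a read ratio of 0.704 (interval 0.679 to 0.731). The FPKM ratio of LGALS3 to LGALS3BP was 1.21 in shCtrl and 1.48 in shZEB1, and the reads differed 1.23-fold (interval 1.16 to 1.30). MCAM, an adhesion molecule of melanoma and vessel cells, had 77.3 and 50.8. The interval of the mucin MUC1, with 50 and 31 reads, ran from 0.396 to 1.02, and NRP1, a semaphorin co-receptor, had 147 and 106 reads. The higher one was ITGB1, the beta-1 integrin chain, at 82.4 and 93.6. The T cell counter-receptors CD7 and PTPRC were in neither file.

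Enzymes that build the glycans galectins bind had a median log2 ratio of -0.08 over 9 measured genes. By the interval 3 were lower and 1 higher, against 21.4% and 27.9% of all measured genes, and the size rule counted 0. MGAT5, which makes the branched N-glycans favoured by galectin-3, had an FPKM of 39.9 and 45.5 (read ratio 1.14, interval 1.08 to 1.20) and MGAT1, at the start of that pathway, 50.3 and 38.3. MGAT2 had 13.4 and 10.9, and B4GALT1, a galactosyltransferase, 27.4 and 22.4. B3GNT2, which extends the lactosamine chains, had 10.2 and 11.9, and its interval (0.979 to 1.39) included 1.

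Genes that clear vesicles marked by galectins had a median of -0.02 over 9 measured genes. By the interval 3 were lower and 0 higher, against 21.4% and 27.9% of all measured genes. The size rule counted 1 as lower, beside 1.61% of all measured genes. That gene was OPTN, an autophagy receptor, with 574 reads and an FPKM of 19.4 in shCtrl, against 247 reads and 8.68 in shZEB1, with a read ratio of 0.446 (interval 0.382 to 0.518). CALCOCO2, the receptor that galectin-8 recruits, had 17.2 and 16.9 (interval 0.871 to 1.11). MAP1LC3B, an autophagosome coat protein, had 49.5 and 33.5, TAX1BP1 40.1 and 33.9, and TRIM16 77 and 101 reads (interval 0.9997 to 1.85).

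**Figure D4:**
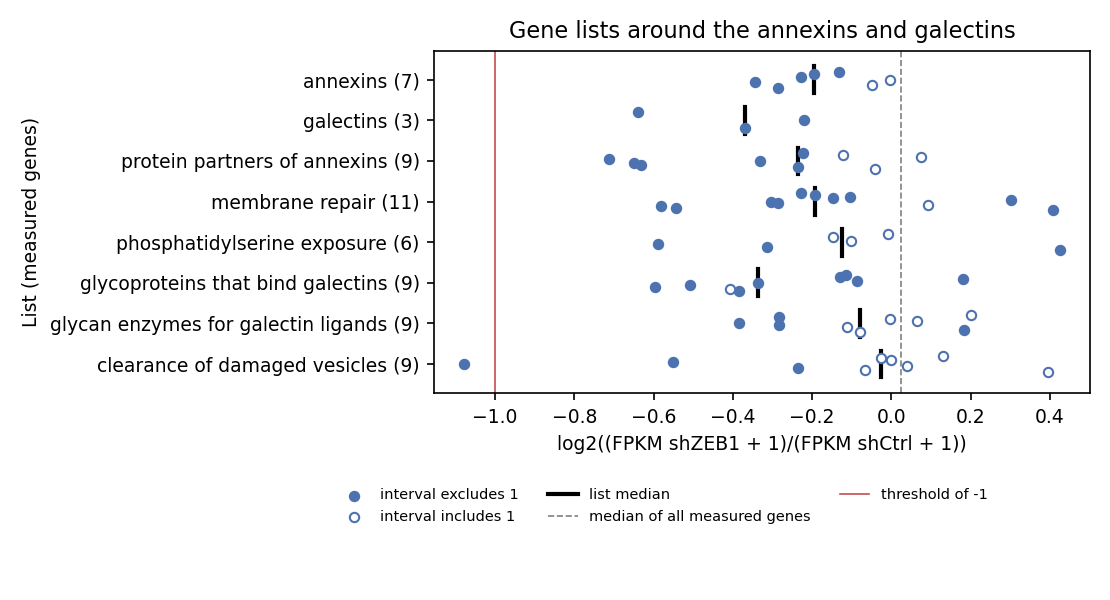
log2((FPKM shZEB1 + 1)/(FPKM shCtrl + 1)) of each measured gene in 8 lists; filled points have a read-ratio interval that excludes 1, black bars are list medians, the dashed line is the median of all measured genes (0.02) and the red line the threshold of -1. OPTN is the only point past -1, and the galectins (-0.37) and galectin-binding glycoproteins (-0.34) have the lowest medians.

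Promoter windows were read for 2 motifs, and the windows that held one are printed with that of ANXA5, the annexin with the largest difference, for comparison. CAGGTG, the E-box that ZEB1 is known to bind, and TGANTCA, the site of JUN and FOS dimers, were searched on both strands in the 250 bases before each gene's start in RefSeq (GRCh38.p14), which 9 of the 10 members had. The member without a window was LGALS1, so its promoter was not searched. The 2 motifs do not overlap each other in these windows. CAGGTG was in 1 of the 9, that of ANXA7, in 14.8% of the 9546 windows of measured genes and in 17.5% of all 27305 windows. TGANTCA was in 1 of the 9, that of ANXA2, in 3.62% of the windows of measured genes and in 6.60% of all windows. Capitals mark the motif, which begins 141 bases before the start of ANXA7 (chr10:73414059-73414308, minus strand) and 127 bases before that of ANXA2 (chr15:60397987-60398236, minus strand). The window of ANXA5 (chr4:121696981-121697230, minus strand) held neither. A match is a description of letters, and binding was not measured.
ANXA7: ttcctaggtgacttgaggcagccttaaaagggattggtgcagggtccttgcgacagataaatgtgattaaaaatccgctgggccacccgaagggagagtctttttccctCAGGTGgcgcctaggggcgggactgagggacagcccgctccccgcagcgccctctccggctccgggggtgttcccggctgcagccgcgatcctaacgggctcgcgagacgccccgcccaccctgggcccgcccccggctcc
ANXA2: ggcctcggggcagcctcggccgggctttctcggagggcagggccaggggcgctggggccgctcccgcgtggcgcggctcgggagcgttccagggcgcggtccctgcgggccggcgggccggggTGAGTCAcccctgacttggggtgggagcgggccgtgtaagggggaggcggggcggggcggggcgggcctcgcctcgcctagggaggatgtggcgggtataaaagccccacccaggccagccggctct
ANXA5: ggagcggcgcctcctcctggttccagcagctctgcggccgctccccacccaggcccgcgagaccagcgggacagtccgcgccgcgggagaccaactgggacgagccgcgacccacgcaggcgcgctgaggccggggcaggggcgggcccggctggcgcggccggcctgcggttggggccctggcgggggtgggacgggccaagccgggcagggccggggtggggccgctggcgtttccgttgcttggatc

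Marker genes differed beside these values, in both directions. Of the 7 melanocyte markers 4 were lower by the interval. The share was 21.4% of all measured genes and 43.0% of those with an FPKM of at least 100. The summed FPKM of the 7 markers was 1649 in shCtrl and 1204 in shZEB1. PMEL had a read ratio of 0.579 and DCT 0.547, while the intervals of TYRP1, MITF and SOX10 included 1. Their abundance in both libraries leaves the line label in doubt. Of 5 measured breast line markers 3 were higher by the interval and 1 lower, beside 27.9% and 21.4% of all measured genes. The higher ones were KRT18 (read ratio 1.45), KRT7 (2.26, on 11 and 24 reads) and F3 (2.19, on 17 and 36 reads). The lower one was AXL (0.826, interval 0.716 to 0.952). Of 2 measured fibroblast markers LUM was higher (2.80, on 10 and 27 reads). Of the macrophage markers only CD68 was measured, at a read ratio of 0.220, and neither file held the defining markers TYROBP, PTPRC and CD163. The part of these differences in the annexin and galectin values was not tested.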

How the data were processed

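RSEM 1.2.8, Bowtie2 2.2.5, DESeq and HISAT2 2.1.0 were used on hg38, per the submitters' processing notes. No setting or order is given in the sources used here. The authors' deposited files gave, per the file headers, an expected count (estimated reads), an FPKM value and a gene length for each gene of each library. Of 15217 Entrez identifiers, 15183 matched a symbol in RefSeq (GRCh38.p14), which gave the coordinates. A gene missing from a file was entered at 0. Counts were rounded for intervals.

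The read ratio was scaled to library totals, the sums of the expected counts, with an exact conditional binomial (Clopper-Pearson) 95% interval. Intervals of FPKM were exact Poisson, and those of the ratio of 2 genes a normal approximation of the log odds ratio, added after the values were seen. With 1 library per group, edgeR 4.0.16 and DESeq2 1.42.0 gave scaling factors only. Simulated counts with known fold changes were used to test the size rule. They were Poisson draws with no spread between cultures, so that test covers counting error only. Alternatives were another pseudocount, 5 scalings, filters and folds. The members, lists and rules were chosen with earlier results of these data known. Named were all members, all listed annexins and galectins, and in each list the counted genes and up to 4 with the largest log2 ratio in size, beside a few fixed genes. Genes outside this rule (S100A1, PDCD6, SRI, FPR2, FPR3, PLG, EHD1, ITGB1, MGAT5, CALCOCO2, CD7, SOX10 and some markers) were named after their values were seen. Software was R 4.3.3, Python 3.11.15, SciPy 1.17.1, pandas 2.3.3, NumPy 2.4.6 and matplotlib 3.10.9.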

Additional observations from a re-analysis of the deposited data

How the results depend on the processing

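The medians of the members, the annexins and the galectins stayed below 0 under every alternative run, from -0.27 to -0.17 for the members, -0.25 to -0.14 for the annexins and -0.47 to -0.35 for the galectins. The log2 ratio of LGALS1 ran from -0.67 to -0.59. The median of all measured genes ran from -0.01 to 0.08, and was -0.06 over genes with an FPKM of at least 100. The 0 members counted as lower became 1 at 1.5-fold and 8 with no minimum fold, and 0 were higher throughout.

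The background depended more on the settings. Against 115 genes counted as higher, there were 311 with a pseudocount of 0.1, 236 with TPM, 209 with edgeR's TMM, 313 with DESeq2 size factors, 44 with an FPKM of at least 5, 611 at 1.5-fold and 3401 with no minimum fold. Against 198 counted as lower, there were 326 with DESeq2 size factors, 664 at 1.5-fold and 2650 with no minimum fold. Among genes with an FPKM of at least 100, a filter chosen after seeing the data, 17 were lower and 0 higher. Fewer genes were tested under the stricter filters. With TPM, TMM and DESeq2 size factors the pseudocount of 1 was kept though the unit was not FPKM. The part of this, and the cause of the other shifts, was not tested. No paired analysis was possible because each group has 1 library. Depth limits LGALS8 and ANXA4 most, with 295 to 524 reads.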
